A study of Mus musculus with 8 samples.

Results

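Fatty acids reach the cells of fat tissue through proteins at the plasma membrane and are then held in the cytosol by binding proteins. CD36 is a membrane protein that promotes uptake of long-chain fatty acids. FABP4 and FABP5 are small cytosolic proteins that bind fatty acids, and FABP4 is abundant in adipocytes and in the endothelium of fat capillaries. The Slc27a genes encode fatty acid transport proteins with acyl-CoA synthetase activity, Acsl1 encodes a long-chain acyl-CoA synthetase that traps fatty acids as thioesters, and Cd300lg encodes a surface protein of the capillary endothelium.

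The 8 genes Cd36, Fabp4, Fabp5, Cd300lg, Slc27a1, Slc27a3, Slc27a4 and Acsl1, of 32285 genes in the tables, were selected by symbol and followed in single-cell RNA-seq of the stromal vascular fraction (SVF), the cells other than floated adipocytes, of the inguinal white fat of C57BL/6 mice (C57BL/6J in the study's text). 4 libraries came from mice with food always present (Ad-Lib 1, 3, 5 and 7) and 4 from TAN mice (TAN 2, 4, 6 and 8), which received food only in a pair of short windows of each night. The labels give an age of 8 weeks for every mouse in both groups, whereas the study's text describes older males after months of each regimen, so that the age is not certain. No mouse carried a transgene or received a drug. The study's text gives 4 mice per group, by which each library is 1 animal. Its methods also speak of combining 4 samples in all, so that the number of animals is not fully certain.

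The choice of genes was based on these same libraries: Cd36, Fabp4 and Cd300lg were already known to be higher in the progenitors of TAN mice. Their values in progenitors are therefore given as a description with no test. For all other pairs of gene and cell gate, raw UMIs (counted RNA molecules) were summed per library within the gate and TAN was compared with Ad-Lib by edgeR's quasi-likelihood test across all genes. Calls required both an adjusted p (Benjamini-Hochberg, over all genes tested) under 0.05 and a difference of 1.5-fold or more. Levels are given as CPM, the UMIs of a gene per 1000000 UMIs of its gate.

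The 8 libraries held 44427 barcodes and 232345333 UMIs, and 36370 cells were kept, 3717 to 5654 per library, with a median of 3926 to 6561 UMIs per cell. Pairs of libraries shared 5 to 16 barcode sequences. Marker gates took 22116 cells, of which 7 fell in 2 gates. They held 4768 capillary, 1084 arterial, 3831 macrophage, 941 mural, 1780 Pi16, 1109 Icam1/Col15a1, 2076 Gdf10, 2616 B and 3807 T cells. The smallest of the progenitor samples was the Icam1/Col15a1 gate of TAN 6, with 33 cells against 87 to 260 in the other libraries. In the B gate, 669 of 786 Ad-Lib cells came from Ad-Lib 3, and the lowest Ad-Lib library had 24. The summed level of 10 capillary markers was 9919.8 to 11507 CPM in the capillary gate and 12.1 to 36.1 CPM in the progenitor gates. It was 8086 to 10980.1 CPM in the arterial gate, which overlapped the capillary gate, so that these markers do not set the arterial gate apart. Macrophage markers summed to 11364 to 14529 CPM in the macrophage gate, and progenitor markers to 15615 to 33477 CPM in the 3 progenitor gates. The median mitochondrial share of UMIs was 1.76 to 2.38% in Ad-Lib and 2.69 to 3.64% in TAN libraries, with no overlap. The venous (98 cells), lymphatic (8 cells) and adipocyte-transcript-rich (5 cells) gates had fewer than 20 cells in every library and were not tested.

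All 8 genes are protein-coding and are placed here on GRCm38. Cd36 lies on the minus strand at chr5:17781690-17888801. Fabp5 (plus strand, chr3:10012548-10016607) and Fabp4 (minus strand, chr3:10204088-10208576) are separated by 187480 bases. Slc27a3 lies at chr3:90385239-90389938 on the minus strand, Slc27a4 at chr2:29802634-29817522, Acsl1 at chr8:46471037-46536051, Slc27a1 at chr8:71568882-71587302 and Cd300lg at chr11:102041509-102055620, the last 4 on the plus strand. The libraries read transcript 3′ ends, so the counts do not show which start was used.

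Cd36 had the largest fitted difference between feeding groups, in the progenitors described below, and the 250 bases before its RefSeq start (GRCm38.p6, minus strand, chr5:17835897-17836146, inside the annotated span of the gene) are shown for that reason, 5′ to 3′ along the gene, with the CCAAT match in capitals.
Cd36: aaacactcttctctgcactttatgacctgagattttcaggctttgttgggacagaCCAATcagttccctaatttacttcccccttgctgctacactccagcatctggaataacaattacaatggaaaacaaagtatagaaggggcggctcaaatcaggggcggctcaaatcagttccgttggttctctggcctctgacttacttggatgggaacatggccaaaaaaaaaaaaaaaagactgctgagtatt
On either strand the window held 1 match to CCAAT, a motif found in 33.8% of 32851 RefSeq windows of this length. It held 1 match to the nuclear receptor half-site AGGTCA (14.0% of windows), 2 to the GC box GGGCGG (32.7% of windows) and none to TATAAA (12.4% of windows), and the 4 matches did not overlap. RefSeq windows were also matched for Slc27a1, Slc27a3, Slc27a4 and Acsl1, so that 5 of the 8 genes were matched. Windows of Fabp4, Fabp5 and Cd300lg were not used here. A match to these letters is a description of the sequence only.

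To place the genes among the cells of the SVF, levels were first compared across the 9 gates over all 8 libraries. Cd36, Fabp4, Fabp5 and Cd300lg were all highest in the capillary gate and next highest in the arterial gate. Cd36 averaged 4303 ± 575 CPM (SD, n = 8) in capillary cells and 3170 ± 503 CPM in arterial cells, and these ranges overlapped. Macrophages (786 ± 133 CPM) and mural cells (752 ± 133 CPM) followed with ranges that overlapped each other but not the arterial range. All progenitor and lymphocyte gates lay below them, with 7.15 ± 2.86 CPM in the Pi16 gate as the lowest. Capillary cells carried 38.6 to 52.1% of all Cd36 UMIs of a library and macrophages 4.88 to 13.3%.

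Fabp4 averaged 47685 ± 4880.3 CPM in capillary, 38686 ± 4078 CPM in arterial and 17223 ± 3935 CPM in mural cells, with no overlap between mural and arterial ranges. In the macrophage gate it was 432 ± 157 CPM. Fabp5 was the one of these 4 genes for which the capillary range (863 to 1541 CPM) did not overlap the arterial range (379 to 660 CPM). Cd300lg was 972 ± 135 CPM in capillary cells, 736 ± 117 CPM in arterial cells and 162 ± 54.6 CPM in mural cells, and outside the vessels it was highest in the Icam1/Col15a1 gate.

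The transporters had other orders. Slc27a1 was highest in macrophages at 26.9 ± 5.33 CPM, a range that did not overlap that of the Icam1/Col15a1 gate (15.2 ± 3.05 CPM). Slc27a4 was highest in the 3 progenitor gates, whose means of 14.7 to 16.8 CPM had overlapping ranges. Slc27a3 was highest in arterial cells (9.37 to 22.7 CPM), with overlap into the capillary gate (5.45 to 16.1 CPM). Acsl1 was highest in capillary cells (62.1 ± 7.54 CPM), a range that overlapped those of mural cells (42.1 ± 12.5 CPM) and macrophages (36.8 ± 7.81 CPM) but not that of arterial cells (37.1 ± 7.21 CPM). These orders are descriptions, since the gates and genes were chosen together.

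**Figure D1:**
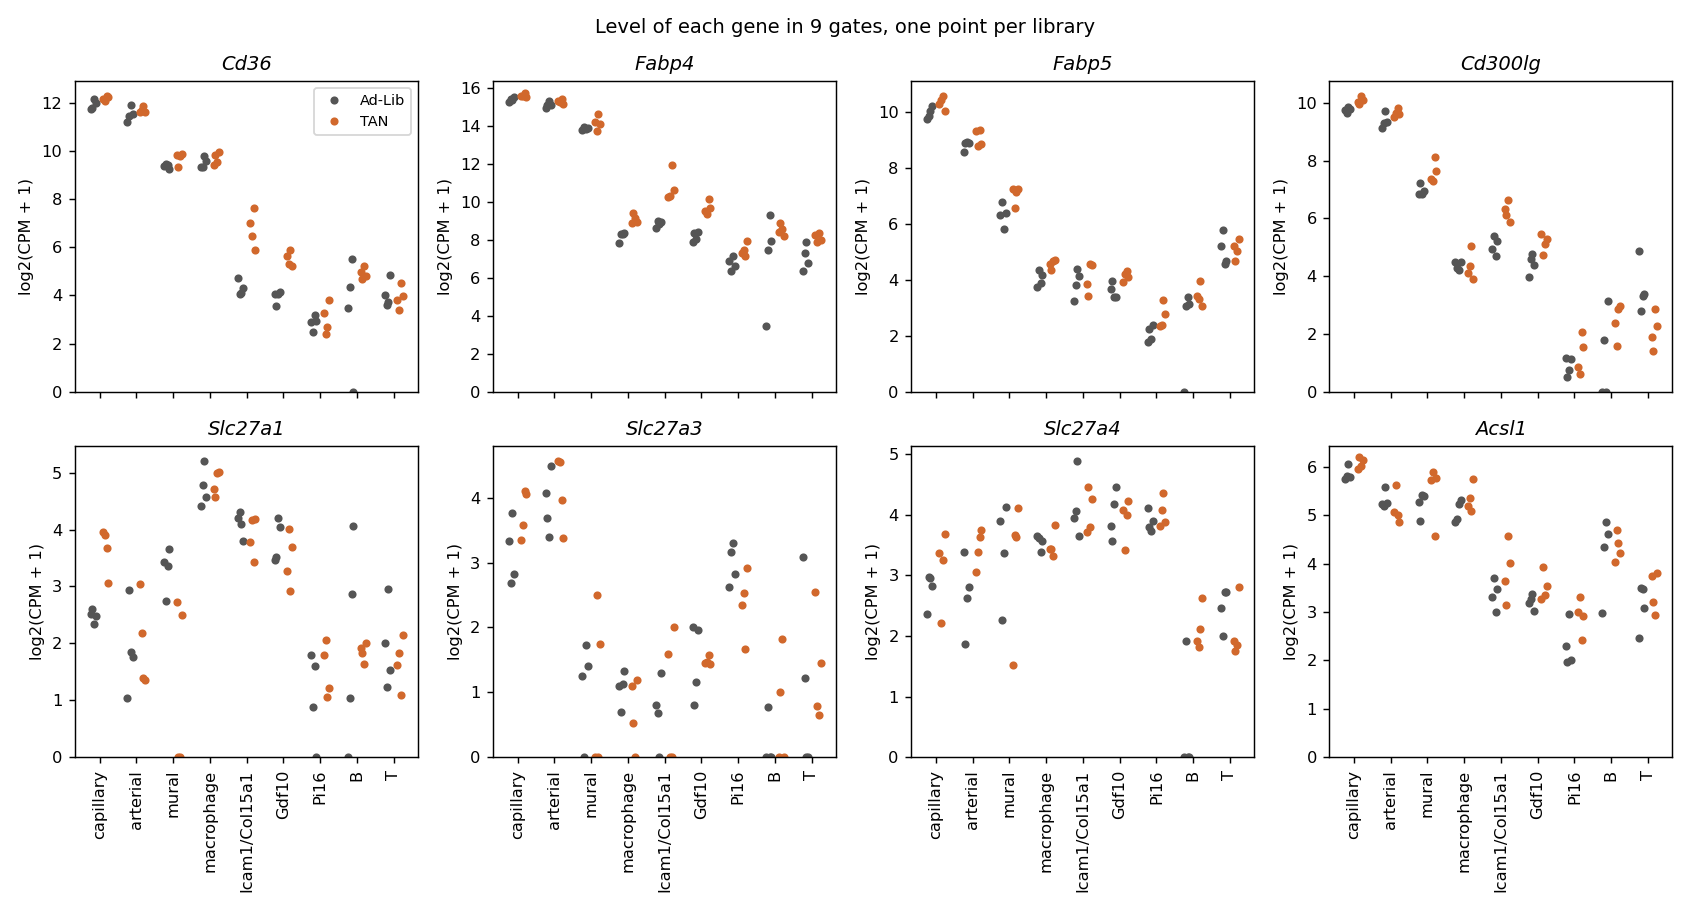
Level of the 8 genes as log2(CPM + 1) on the y axis in 9 cell gates on the x axis, with 1 point per library (grey, Ad-Lib; orange, TAN; y axes differ between panels). Cd36, Fabp4, Fabp5 and Cd300lg are highest in the capillary gate, whereas Slc27a1 is highest in macrophages and Slc27a4 in progenitors.

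In droplet data free RNA from lysed cells can add UMIs to cells that do not make a transcript. The lymphocyte gates are given for comparison, and no profile of empty droplets was used here. Fabp4 stood at 81.0 to 335 CPM in the T gate and 10.3 to 636 CPM in the B gate, and Cd36 at 15.7 ± 6.22 and 24.1 ± 14.1 CPM (SD, n = 8). Gpihbp1, a capillary gene that anchors lipoprotein lipase, was 4.86 ± 2.91 CPM in the T gate.

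The question for adipocyte progenitors was whether the genes followed the feeding regimen in each of 3 subsets: Pi16 cells, regarded as early progenitors, Icam1/Col15a1 cells, regarded as committed preadipocytes, and Gdf10 cells. Cd36, Fabp4 and Cd300lg were higher in TAN than in Ad-Lib libraries in the Icam1/Col15a1 gate, and Cd36 and Fabp4 also in the Gdf10 gate, in each case with no overlap between groups. The share of all genes whose feeding groups did not overlap was not counted. Here and below, a lack of overlap is therefore a description only. In the Pi16 gate Cd36 did not separate the groups.

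In the Icam1/Col15a1 gate Cd36 was 25.2, 15.7, 16.1 and 18.8 CPM in Ad-Lib 1, 3, 5 and 7 and 128, 87.1, 195 and 57.4 CPM in TAN 2, 4, 6 and 8. Every TAN library lay above every Ad-Lib library, with TAN 6 the highest and TAN 8 the lowest of its group. The group means were 18.9 ± 4.38 and 117 ± 59.5 CPM (SD, n = 4 each), a ratio of 6.17, and the fitted log2 change was 2.40 ± 0.26 (SE). Ad-Lib libraries were thus at the level of the T and B gates, and TAN libraries above it.

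In the Gdf10 gate Cd36 was 15.8, 10.9, 15.8 and 16.6 CPM in Ad-Lib libraries and 49.5, 39.0, 58.3 and 36.1 CPM in TAN libraries. The groups did not overlap, and the log2 change was 1.57 ± 0.17. In the Pi16 gate Cd36 was 6.40, 4.61, 8.19 and 6.69 CPM against 8.62, 4.23, 5.41 and 13.1 CPM, with overlapping groups, and the log2 change was 0.32 ± 0.31.

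Fabp4 in the Icam1/Col15a1 gate was 396, 514, 458 and 497 CPM in Ad-Lib libraries and 1251, 1302, 3953 and 1586 CPM in TAN libraries. TAN 6, the library with 33 cells, stood far above the other 3, and all 4 lay above the Ad-Lib range. The log2 change was 2.05 ± 0.23, and without TAN 6 it was 1.56 ± 0.11. Fabp4 was also higher in the Gdf10 gate, with 241, 332, 266 and 347 CPM against 756, 666, 1135 and 833 CPM and a log2 change of 1.47 ± 0.14. In the Pi16 gate it was 120.0, 82.9, 143 and 98.5 CPM against 161, 179.6, 144 and 249 CPM, a log2 change of 0.72 ± 0.15, where the highest Ad-Lib and the lowest TAN library nearly touched. The Pi16 levels lay within the range of the T gate.

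Cd300lg in the Icam1/Col15a1 gate was 29.6, 41.1, 25.2 and 36.1 CPM in Ad-Lib libraries and 78.9, 68.7, 97.4 and 58.4 CPM in TAN libraries, with no overlap and a log2 change of 1.13 ± 0.17. In the Gdf10 gate 14.7 to 26.2 CPM in Ad-Lib libraries overlapped 25.7 to 43.5 CPM in TAN libraries, and the log2 change was 0.76 ± 0.17. In the Pi16 gate Cd300lg was at 0.419 to 3.25 CPM and did not pass the filter on low counts. All 8 libraries of the Icam1/Col15a1 gate lay above the B gate, and all but Ad-Lib 5 above the highest T library.

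**Figure D2:**
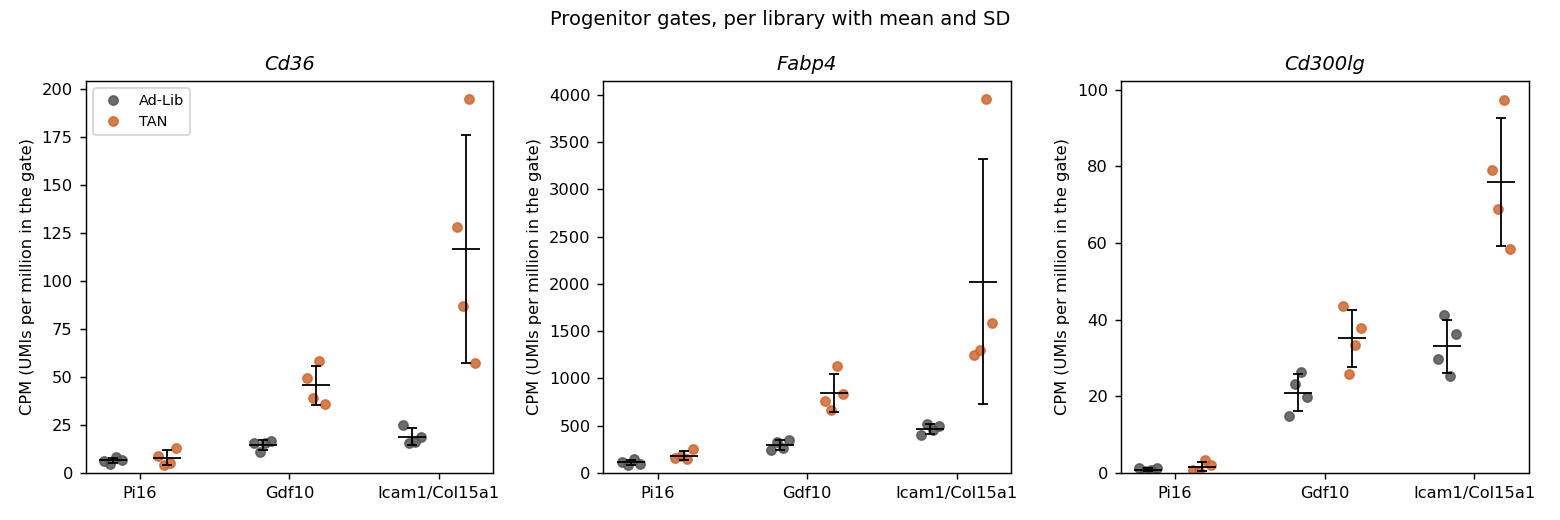
CPM of Cd36, Fabp4 and Cd300lg on the y axis in the 3 progenitor gates on the x axis, with 1 point per library (grey, Ad-Lib; orange, TAN) and the mean ± SD of 4 libraries in black. All 4 TAN libraries lie above all 4 Ad-Lib libraries in the Icam1/Col15a1 gate for each gene, and TAN 6 is the highest point of all 3 genes there.

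The higher sums came with more cells that had a UMI. In the Icam1/Col15a1 gate, a Cd36 UMI was found in 12.8 ± 1.61% of the Ad-Lib cells and in 41.0 ± 15.3% of the TAN cells (SD over 4 libraries each). The median depth was 10736 UMIs per cell in Ad-Lib and 10441 in TAN libraries (means over libraries). After thinning each cell to 2000 UMIs, which left out 3 Ad-Lib and 5 TAN cells, the shares were 3.37 ± 0.549% and 17.1 ± 9.15%. T cells, of which some subsets in fat can express Cd36 and which are therefore a comparison and not a pure background, had a UMI in 6.26 and 6.24% of cells without thinning and gave 2.06 ± 1.14% in Ad-Lib and 2.35 ± 0.357% in TAN libraries at the same depth, from median depths of 5119 and 5545 UMIs. B cells gave 2.66 ± 2.65% and 4.99 ± 0.738%. The top 5% of cells held 59.5% of the Cd36 UMIs of the Icam1/Col15a1 gate in Ad-Lib libraries and 37.6% in TAN libraries on average.

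At the same depth Fabp4 was seen in 44.2 ± 5.29% of Ad-Lib and 74.3 ± 12.8% of TAN cells of the Icam1/Col15a1 gate, against 16.0 ± 6.54% and 19.1 ± 2.54% in the T gate. Without thinning the Icam1/Col15a1 shares were 75.6 and 89.0%. Cd300lg was seen in 6.50 ± 1.31% and 13.4 ± 2.75% of thinned Icam1/Col15a1 cells, against 0.944 ± 0.595% and 0.556 ± 0.296% in the T gate. Its unthinned shares were 24.0 and 41.3%. The Icam1/Col15a1 gate held on average 0.153% of the Cd36 UMIs of an Ad-Lib library and 0.394% of those of a TAN library.

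**Figure D3:**
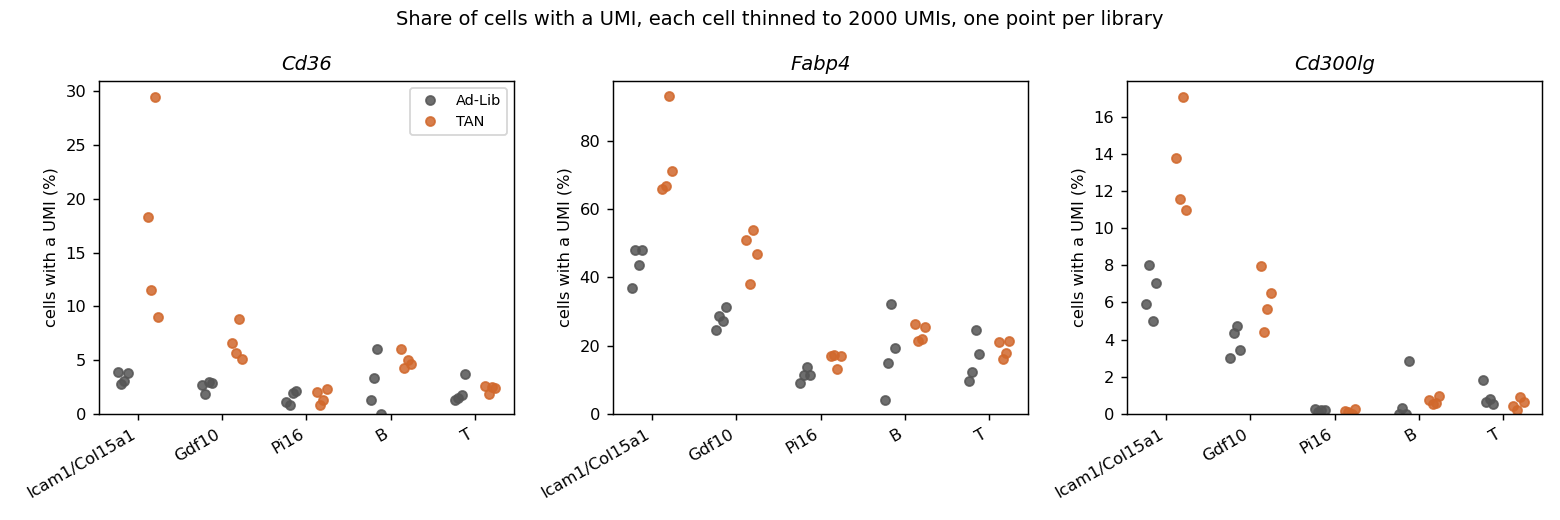
Share of cells with at least 1 UMI of Cd36, Fabp4 or Cd300lg on the y axis (percent, each cell thinned to 2000 UMIs) in progenitor, B and T gates on the x axis, with 1 point per library (grey, Ad-Lib; orange, TAN). Cd36 reaches a mean of 17.1% in TAN cells of the Icam1/Col15a1 gate, against 2.35% in TAN T cells.

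Markers of other cells were measured beside these values. In the Icam1/Col15a1 gate the 10 capillary markers summed to 12.1 to 30.3 CPM in Ad-Lib and 12.1 to 26.0 CPM in TAN libraries (p = 0.371, two-sided exact permutation test, n = 4 each), with 2 of the 10 at 0 in every library of each group. The 7 adipocyte markers summed to 19.5 to 83.8 CPM and 29.5 to 45.4 CPM (exact permutation p = 0.886), with 1 of them at 0 in every TAN library. All 18 such tests had adjusted p values of 0.968 or above. With 4 against 4 libraries the exact permutation p cannot be under 0.0286. A single list therefore could not reach an adjusted p under 0.05 over 18 tests, and no conclusion is drawn from the adjusted values. Adipoq was at most 2.96 CPM and Gpihbp1 at most 3.37 CPM in any library of the gate. Fabp4 had 119, 327.5 and 229 UMIs per Gpihbp1 UMI in Ad-Lib 1, 5 and 7 and 371, 663 and 787.5 in TAN 2, 4 and 8, with no Gpihbp1 UMI in Ad-Lib 3 and TAN 6. Pooled over libraries it had 233 (95% exact interval 139 to 427, counting error only) and 664 (361 to 1384), against 16.3 and 18.5 in the capillary gate. Ad-Lib 1 gave 9 of the 14 Ad-Lib Gpihbp1 UMIs, and without it the pooled Ad-Lib value was 439, above that interval. In cells with no UMI of Adipoq, Plin1, Cidec, Gpihbp1 or Egfl7, an alternative chosen after seeing the data, the log2 changes in the gate were 2.44 ± 0.26 for Cd36, 2.15 ± 0.25 for Fabp4 and 1.16 ± 0.17 for Cd300lg. The 5 mural markers summed to 22.3 to 60.7 CPM in Ad-Lib and 62.9 to 81.1 CPM in TAN libraries of this gate, against 6981 to 9891 CPM in mural cells, and their part in the result was not tested.

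Of the 5 other genes, none was called in a progenitor gate by edgeR. The share of all genes called was 0.391% in the Pi16 gate, 1.6% in the Icam1/Col15a1 gate and 1.27% in the Gdf10 gate. Fabp5, Slc27a1, Slc27a4 and Acsl1 could be tested in the Icam1/Col15a1 and Gdf10 gates, and Slc27a3, Slc27a4 and Acsl1 in the Pi16 gate. At an unadjusted p under 0.05, Fabp5 in the Gdf10 gate (log2 change 0.53 ± 0.20, adjusted p = 0.251) and Acsl1 in the Pi16 gate (0.79 ± 0.32, adjusted p = 0.415) passed, as did 12.3% and 9.39% of all genes in these gates. DESeq2 called none of the 5 either. Fabp5 in the Icam1/Col15a1 gate was 8.51, 13.3, 20.3 and 16.6 CPM in Ad-Lib libraries and 13.5, 9.82, 22.7 and 22.2 CPM in TAN libraries, with a 95% interval of the log2 change from -0.48 to 0.71. Slc27a1 there had an interval from -0.63 to 0.32 and Slc27a4 one from -0.61 to 0.49.

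The feeding change was then compared between subsets in 1 model with the library as a block. Cd36 changed by 2.06 ± 0.42 more (log2, SE) in the Icam1/Col15a1 than in the Pi16 gate and by 0.88 ± 0.22 more than in the Gdf10 gate. For Fabp4 the differences were 1.14 ± 0.28 and 0.45 ± 0.13, and without TAN 6 they were 0.76 ± 0.17 and 0.23 ± 0.08. For Cd300lg they were 0.67 ± 0.71 and 0.36 ± 0.22, within 2 SE of 0. These are values with no test. Of the genes that could be tested (Fabp5, Slc27a1, Slc27a4 and Acsl1), none was called and none had an unadjusted p under 0.05 in either pair, while 0.786% and 0.0818% of all genes were called in the pairs with Pi16 and with Gdf10.

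Capillary cells, the cells with the highest Cd36, Fabp4, Fabp5 and Cd300lg, were compared next. Slc27a1 was the 1 gene of the 8 called in the capillary gate, where 2.55% of all genes were called. It was 4.71, 5.09, 4.04 and 4.56 CPM in Ad-Lib libraries and 14.5, 14.0, 11.8 and 7.38 CPM in TAN libraries. All TAN libraries lay above all Ad-Lib libraries, with TAN 8 the nearest. The log2 change was 1.43 ± 0.26 (edgeR, adjusted p = 0.00359), and the range of adjusted p over leaving out each library was 7.56e-04 to 0.0293. The median mitochondrial share in capillary cells was 1.67 to 2.12% in Ad-Lib and 2.53 to 3.19% in TAN libraries, without overlap, and its part in the result was not tested. The sums rest on 48 UMIs in 2267 Ad-Lib cells and 141 UMIs in 2501 TAN cells.

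Adipocytes also express Slc27a1, and their transcripts were present in this gate, with 7 markers summing to 1145 to 1586 CPM in Ad-Lib and 1129 to 2149.9 CPM in TAN libraries (p = 0.657, exact permutation test). In capillary cells without an Adipoq, Plin1 or Cidec UMI, Slc27a1 had 16 UMIs in Ad-Lib and 41 in TAN libraries, at 0 to 4.24 CPM and 2.98 to 10.5 CPM, with overlapping groups. The group means were 2.40 and 6.01 CPM. It did not pass the filter on low counts there and was not tested.

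The other transport and binding genes had smaller fitted changes in capillary cells. Cd300lg was 856, 801, 930 and 876 CPM in Ad-Lib and 1030.4, 983, 1208 and 1093 CPM in TAN libraries. The groups did not overlap, and the log2 change of 0.33 ± 0.09 had an adjusted p of 0.0351 but stayed under 1.5-fold. Fabp5 was 863, 943, 1051 and 1198 CPM against 1254, 1385, 1541 and 1063 CPM, with overlap at TAN 8 and a log2 change of 0.40 ± 0.12 (adjusted p = 0.0643). Cd36 was 3433, 3553, 4597 and 4084 CPM against 4590.2, 4317, 4991 and 4859 CPM, with overlapping groups and a log2 change of 0.28 ± 0.09 (adjusted p = 0.108). Fabp4 was 40318 to 48202 CPM against 47533 to 56234 CPM, with overlap at TAN 8 (log2 change 0.23 ± 0.09, adjusted p = 0.169). Acsl1 (0.26 ± 0.10, adjusted p = 0.194), Slc27a3 (0.59 ± 0.26, adjusted p = 0.238) and Slc27a4 (0.50 ± 0.31, adjusted p = 0.437) were not called. Over the alternatives other than leaving out a library, the log2 change of Acsl1 ranged from 0.02 to 0.30. The upper 95% limits for Cd36 and Fabp4 were log2 changes of 0.48 and 0.41.

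The arterial gate, taken by Sema3g, was close to the capillary gate in its markers, with Gpihbp1 at 1351 to 2085 CPM against 2316 to 3035 CPM and with a median mitochondrial share that also did not overlap between feeding groups (1.85 to 2.34% and 2.49 to 3.41%). In the arterial gate 6 of the 8 genes passed the filter on low counts and none was called by edgeR, or by DESeq2 for the 4 genes to which it gave an adjusted p, where edgeR called 0.63% of all genes. Fabp4 (log2 change 0.20 ± 0.08, adjusted p = 0.341) and Cd300lg (0.27 ± 0.12, adjusted p = 0.397) were the 2 with an unadjusted p under 0.05, as had 11.9% of all genes. Cd36 had a log2 change of 0.18 ± 0.12 and Fabp5 of 0.29 ± 0.14. Slc27a1 was at 1.05 to 7.29 CPM and did not pass, nor did Slc27a4. The difference between the capillary and arterial changes was called for none of the 8 genes, against 0.182% of all genes. For Slc27a1 this difference was 1.01 ± 0.68 (adjusted p = 0.861), and for Cd36 it was 0.08 ± 0.07 (adjusted p = 0.922).

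**Figure D4:**
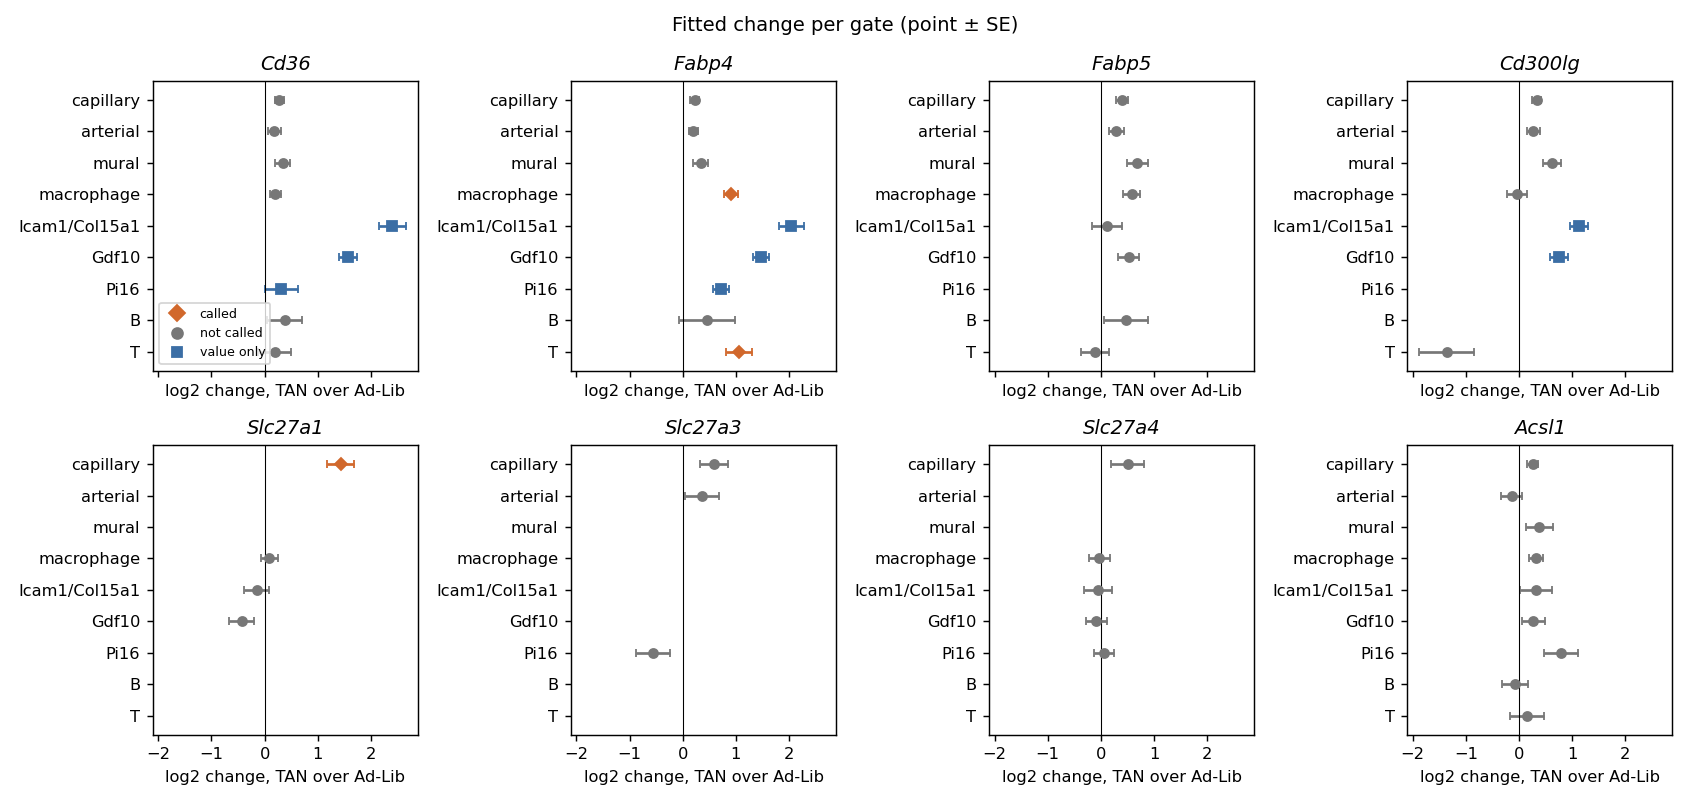
Fitted log2 change of TAN over Ad-Lib on the x axis (point ± SE, 4 libraries each) for the 8 genes in 9 gates on the y axis; gates without a point did not pass the filter on low counts. Orange diamonds are called, grey circles were tested and not called, and blue squares are values with no test, the largest being 2.40 for Cd36 in the Icam1/Col15a1 gate.

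Outside the vessels, macrophages had the highest mean Cd36, in a range that overlapped that of mural cells. Cd36 serves macrophages as a scavenger receptor. In macrophages Cd36 was 650.2, 635, 892 and 762 CPM in Ad-Lib and 691, 920.4, 745 and 989.7 CPM in TAN libraries, with overlapping groups and a log2 change of 0.20 ± 0.11 (adjusted p = 0.427). Fabp4 was the 1 gene called of the 7 that passed the filter on low counts, where 0.549% of all genes were called. It was 233, 318, 321 and 337 CPM in Ad-Lib and 472, 702, 577 and 494 CPM in TAN libraries, with no overlap, and the log2 change was 0.91 ± 0.13 (adjusted p = 0.00211).

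The Fabp4 level of Ad-Lib macrophages overlapped that of the T and B gates, and transcripts of other cells were measured beside it. The capillary markers summed to 34.1 to 54.0 CPM in Ad-Lib and 47.6 to 74.3 CPM in TAN macrophages (exact permutation p = 0.0857), with 1 of 10 at 0 in every library of each group. The share of macrophages with a UMI of these markers was 14.6 ± 2.38% and 20.9 ± 3.72% (exact permutation p = 0.0286, the smallest that 4 against 4 libraries allow). The adipocyte markers summed to 101 to 144 CPM and 100.5 to 278 CPM (exact permutation p = 0.143), and without TAN 6 their means were 121 and 216 CPM (exact permutation p = 0.0286, the smallest that 4 against 3 allow). Their part in the Fabp4 result was not tested beyond the alternatives given here. Fabp4 had 42.3 UMIs per Gpihbp1 UMI in Ad-Lib (95% exact interval 34.8 to 51.8) and 54.8 in TAN macrophages (44.3 to 68.4), pooled over libraries, and 33.0 to 72.6 and 36.5 to 71.6 within single libraries. The call was kept in cells without adipocyte or capillary transcripts. It was lost in cells of at least 2000 UMIs (log2 change 0.73 ± 0.19, adjusted p = 0.0711) and when macrophages were taken by Adgre1 and Csf1r in place of C1q genes (0.75 ± 0.18, adjusted p = 0.0768). Fabp4 of TAN 6 fell from 839 UMIs (577 CPM) in the whole gate to 438 UMIs (325 CPM) in cells of at least 2000 UMIs. Ad-Lib 7 stood at 323 CPM in those cells, so that the groups nearly touched.

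Fabp5 in macrophages was 12.6, 19.4, 13.9 and 17.2 CPM in Ad-Lib and 23.0, 19.6, 24.8 and 25.3 CPM in TAN libraries. The groups did not overlap, but TAN 4 lay next to Ad-Lib 3, and the log2 change of 0.58 ± 0.16 was not called (adjusted p = 0.0924). With macrophages taken by Adgre1 and Csf1r it was -0.29 ± 0.31 (adjusted p = 0.754), so that the direction turned. Acsl1 (0.32 ± 0.13, adjusted p = 0.271), Slc27a1 (0.09 ± 0.16, adjusted p = 0.860), Slc27a4 (-0.03 ± 0.19, adjusted p = 0.966) and Cd300lg (-0.03 ± 0.19, adjusted p = 0.962) were not called either.

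In the T gate Fabp4 was the 1 gene called of the 5 that passed the filter on low counts, where 5.34% of all genes were called. It was 81.0, 159.5, 240.5 and 111 CPM in Ad-Lib and 304, 241.2, 335 and 253 CPM in TAN libraries, and Ad-Lib 5 nearly touched TAN 4. The log2 change was 1.05 ± 0.24 (adjusted p = 0.0294). The call was lost when Ad-Lib 1, Ad-Lib 7, TAN 4 or TAN 6 was left out (log2 change 0.87, 0.93, 1.10 and 0.97; adjusted p 0.0728 to 0.0940) and in cells without adipocyte or capillary transcripts (0.83 ± 0.24, adjusted p = 0.0637).

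Fabp4 had 44.6 UMIs per Gpihbp1 UMI in Ad-Lib T cells (95% exact interval 28.0 to 75.7) and 44.5 in TAN T cells (37.1 to 53.9), and these intervals overlapped. These ratios pool the libraries of a group, and Ad-Lib 3 gave 477 of the 803 and TAN 6 2954 of the 5298 Fabp4 UMIs. Within libraries the ratio was 14.8 to 59.6 in the 3 Ad-Lib libraries with a Gpihbp1 UMI and 36.5 to 65.1 in the 4 TAN libraries. The 10 capillary markers summed to 197 to 360 CPM and 241 to 305 CPM in the T gate (exact permutation p = 0.914). Of these markers, 1 was at 0 in every library of each group. Most of the sum was Rgcc, at 165 to 322 CPM. Mean Rgcc was lower under TAN feeding (228 against 202 CPM), whereas the mean sum hardly differed (265 against 270 CPM). This permutation test therefore reflects mainly Rgcc. The remainder of the mean sum was higher under TAN feeding and was not tested apart from Rgcc. The adipocyte markers summed to 31.5 to 150.2 CPM and 57.3 to 129 CPM (exact permutation p = 0.486). Progenitor markers summed to 143 to 720 CPM in Ad-Lib and 30.9 to 93.6 CPM in TAN T cells, and the median mitochondrial share was 2.15 to 2.83% and 2.91 to 3.56%. The part of these transcripts and of the mitochondrial share in the result was not tested. Cd36 in T cells was 11.0 to 28.2 CPM against 9.69 to 21.7 CPM (log2 change 0.19 ± 0.31, adjusted p = 0.790), and no direction can be read from this, since the mean CPM was lower in TAN (16.7 and 14.8 CPM) and the fitted change was between -0.16 and -0.08 in 4 alternatives, one of them without TAN 6. Cd300lg had 28.5, 6.02, 9.03 and 9.42 CPM in Ad-Lib and 2.77, 1.65, 6.34 and 3.88 CPM in TAN T cells, and a log2 change of -1.36 ± 0.52 that was not called (adjusted p = 0.138). Over leaving out each library this change ranged from -2.03 to -0.78. It was called without Ad-Lib 3 (-1.73 ± 0.55, adjusted p = 0.0434) and with no filter on low counts (-1.34 ± 0.43, adjusted p = 0.0495).

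In the B gate 4 of the 8 genes passed the filter on low counts. None was called, and neither was any other gene (0% of 7677), by edgeR or DESeq2; 201 genes had an unadjusted p under 0.05 in edgeR. Cd36 was 10.3, 19.6, 44.1 and 0 CPM in Ad-Lib and 30.7, 24.9, 36.5 and 26.8 CPM in TAN libraries, and Fabp4 was 10.3 to 636 CPM and 301 to 482 CPM.

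**Figure D5:**
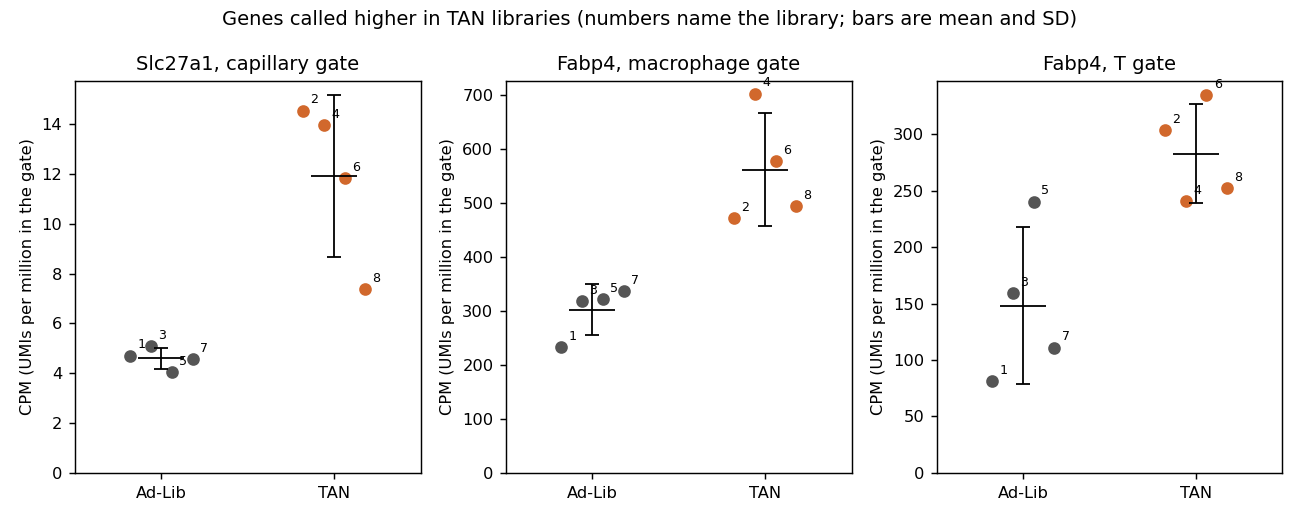
CPM on the y axis of the genes called higher in TAN libraries, by feeding group on the x axis: Slc27a1 in the capillary gate and Fabp4 in the macrophage and T gates. Points are libraries with their numbers and black bars the mean ± SD of 4; Ad-Lib 5 and TAN 4 nearly touch at 240.5 and 241.2 CPM in the T gate.

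Mural cells, the pericytes and smooth muscle around vessels, were not part of the selection. Of 5 genes that passed the filter on low counts none was called by edgeR or DESeq2, where edgeR called 0.92% of all genes, though 4 of them had an unadjusted p under 0.05, as did 10.6% of all genes. Cd300lg was 114, 148, 114 and 122 CPM in Ad-Lib and 165, 155, 277 and 198 CPM in TAN libraries, without overlap, and had a log2 change of 0.62 ± 0.17 (adjusted p = 0.0939). It was called in cells without adipocyte transcripts (0.80 ± 0.18, adjusted p = 0.0260) and in cells without adipocyte or capillary transcripts (0.85 ± 0.19, adjusted p = 0.0342). Fabp5 was 55.9 to 110.2 CPM against 93.7 to 154 CPM (0.69 ± 0.20, adjusted p = 0.112), with overlap; the change was 0.37 ± 0.29 (adjusted p = 0.723) in stricter gates and 0.12 ± 0.32 (adjusted p = 0.949) in cells without adipocyte or capillary transcripts. Cd36 had a log2 change of 0.34 ± 0.14 (adjusted p = 0.346) and Fabp4 of 0.34 ± 0.14 (adjusted p = 0.367). The capillary markers in this gate summed to 634 to 766 CPM and 684 to 756 CPM (exact permutation p = 0.457), with 2 of the 10 at 0 in every library of each group. Gpihbp1, 1 of these markers, was 34.7 to 65.2 CPM in Ad-Lib and 49.2 to 133 CPM in TAN libraries, with overlapping groups. Its means were 50.3 and 87.1 CPM, and its part in the Cd300lg values was not tested. Slc27a1 was 9.73, 5.70, 9.31 and 11.6 CPM in Ad-Lib and 5.63, 0, 0 and 4.67 CPM in TAN libraries but did not pass the filter on low counts.

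The pathway was widened to 27 related genes, comprising other Slc27a, Fabp and Acsl genes, caveolar genes, CD36 palmitoyltransferases, and regulators such as Pparg, Cebpa, Tcf15 and Meox2. Between 11 and 16 of them could be tested per gate. None was called higher in any of the 9 gates. Cebpa, an adipogenic transcription factor, was lower in the T gate (log2 change -1.74 ± 0.39, adjusted p = 0.0270), where 5.34% of all genes were called. Progenitor markers were also lower in TAN T cells (143 to 720 CPM in Ad-Lib, 30.9 to 93.6 CPM in TAN libraries), and their part in the Cebpa result was not tested. Tcf15, which with Meox2 forms a regulator of endothelial fatty acid uptake, was lower in the mural gate (-0.64 ± 0.15, adjusted p = 0.0439). The median log2 change of the tested genes ranged from -0.19 in the T gate and -0.13 in the arterial gate to 0.03 in the B gate over the 9 gates, with -0.11 in the Icam1/Col15a1, -0.05 in the Pi16 and -0.04 in the Gdf10 gate, and the medians over all genes tested lay between -0.01 and 0.01 in the 9 gates. Pparg, the adipogenic nuclear receptor, was 36.3, 41.1, 39.1 and 46.9 CPM in Ad-Lib and 27.7, 36.7, 61.7 and 29.2 CPM in TAN libraries of the Icam1/Col15a1 gate, with overlapping groups.

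Genes with the most similar pattern were sought by the Pearson correlation of log2(mean CPM + 1) across 9 gates among 11256 genes. For Cd36 these were Tmem86a (r = 0.979), Cyb5r1 (0.976) and Ccdc47 (0.976). For Fabp4 they were 4931406P16Rik (0.991), Tmem204 (0.980) and Myo10 (0.979), for Fabp5 Plpp6 (0.990), Cdc73 (0.983) and Oip5os1 (0.982), and for Cd300lg Dgkh (0.972), Ndufc2 (0.970) and C430049B03Rik (0.969). The 9 points share libraries and depth, and the values are a description of these gates.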

How the data were processed

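Single cells of the SVF of inguinal white fat were sequenced with 10x Genomics 3′ chemistry. The authors deposited filtered gene-by-barcode tables of raw UMI counts per library, made with Cell Ranger (3.0.2 per the submitters' notes, 6.0.1 per the file headers) against mm10; these counts are not normalized. Cell Ranger counts reads assigned to 1 gene, so genes with near-identical copies may be undercounted.

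Cells with 700 to 30000 UMIs, 200 to 8000 genes and at most 10% mitochondrial UMIs were kept. No doublet caller was run; gates required markers of other lineages at 0. UMIs were summed per library and gate (Python 3.11.15), and libraries with at least 20 cells were fitted with edgeR 4.0.16 (R 4.3.3; TMM, filterByExpr, glmQLFit, glmQLFTest), adjusting over all genes tested. The library is the replicate. Whether libraries were prepared together is not given in the sources used here, so p-values measure the spread between these libraries. Differences between gates used the gate by feeding interaction with library as a block, called at an adjusted p under 0.05. Marker sums used exact permutation over the 70 assignments. The fits were tested on simulated data. CPM is UMIs per 1000000 UMIs of the gate.

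The genes named are the 8 selected genes in every gate, related genes where called, and the 3 most correlated genes for Cd36, Fabp4, Fabp5 and Cd300lg; Pparg, Gpihbp1, Adipoq and Rgcc were added after values were seen. Members and lists were chosen with earlier results of these data known. The rule on similar genes named 12 gates; 9 had enough cells. Alternatives were relative log expression factors, DESeq2 1.42.0, no filter on low counts, doubled marker minimums, other gate markers, a 20% mitochondrial limit, cells of at least 2000 UMIs, cells without adipocyte transcripts, no minimum fold, leaving out each library, and, chosen after seeing the data, cells without adipocyte or capillary transcripts. Intervals of ratios are exact and cover counting error only.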

Additional observations from a re-analysis of the deposited data

Results flagged for a closer look

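Of 108 groups of 4 libraries, 6 had 1 library far from the other 3, and chance gives about 1 in 20. In the Icam1/Col15a1 gate, Fabp4 was 3953 CPM in TAN 6 against 1251 to 1586 CPM in the other TAN libraries, and TAN 6 had 33 cells there. In the Gdf10 gate, Cd36 was 10.9 CPM in Ad-Lib 3 against 15.8 to 16.6 CPM. In the arterial gate, Fabp5 was 379 CPM in Ad-Lib 1 against 477 to 494 CPM, and Acsl1 was 46.9 CPM in Ad-Lib 5 against 35.8 to 37.1 CPM. In the T gate, Cd300lg was 28.5 CPM in Ad-Lib 1 against 6.02 to 9.42 CPM. In the mural gate, Acsl1 was 22.7 CPM in TAN 6 against 52.5 to 58.5 CPM. No difference of the feeding change between gates was called among the genes tested.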

How the results depend on the processing

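The counts of called genes changed as follows. In the endothelial gates the count of 1 became 0 in cells without adipocyte transcripts, where Slc27a1 had fewer counts than the filter asks, and 2 with no minimum fold, which adds Cd300lg. In the macrophage gate the count of 1 became 0 in cells of at least 2000 UMIs and with gates without the defining gene. In the lymphocyte gates the count of 1 became 2 with no filter on low counts (Cd300lg lower in T cells) and 0 in cells without adipocyte or capillary transcripts, and ranged from 0 to 2 when a library was left out. In the mural gate the count of 0 became 2 with no filter on low counts (Cd300lg and Fabp5), 1 in cells without adipocyte transcripts and 1 in cells without adipocyte or capillary transcripts (Cd300lg in both), and 0 to 2 when a library was left out, the 2 without Ad-Lib 3. Of the 18 marker sums, none passed 0.05 in the main test, 1 did as a share of cells with a UMI, and 0 to 1 when a library was left out. The progenitor and interaction counts of 0 held in each alternative run. The cause of these changes was not tested except where fewer counts are named. Among 1206 alternative values of single genes, none reversed a called change, 7 lost a call and 9 gained one; 54 changed sign where no call was made in either. The log2 change in the Icam1/Col15a1 gate ranged over leaving out libraries from 2.22 to 2.67 for Cd36, 1.56 to 2.20 for Fabp4 and 1.01 to 1.26 for Cd300lg. Without the filter on low counts, the genes called of all tested rose from 257 to 410 (capillary), 49 to 169 (arterial), 54 to 211 (macrophage), 36 to 151 (Pi16), 144 to 276 (Icam1/Col15a1), 128 to 297 (Gdf10), 0 to 1 (B), 472 to 1025 (T) and 56 to 177 (mural). Stricter gates gave 27 (arterial) and 66 (Gdf10), cells of at least 2000 UMIs 25 (mural), no minimum fold 439 (capillary) and 101 (macrophage), and macrophages by other markers 34. Leaving out a library gave 168 to 288 (capillary), 30 to 101 (arterial), 24 to 73 (macrophage), 9 to 80 (Pi16), 101 to 149 (Icam1/Col15a1), 62 to 148 (Gdf10), 69 to 1247 (T) and 19 to 76 (mural). No paired analysis was possible because the feeding groups share no replicate number. Slc27a1, Slc27a3 and Slc27a4 did not pass the filter on low counts in several gates. Neither did Fabp5 in the Pi16 gate or Cd300lg in the Pi16 and B gates.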
